A study of Mus musculus with 23 samples.

Results

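The sites described here are the wider distal H3K27ac peaks listed only at E13.5 in Ebf2-EGFP+ cells of the mouse cerebral cortex. They were selected on the peak lists themselves, with 4 criteria. A site was a peak of the E13.5 H3K27ac list on chromosomes 1 to 19 or X, it was at least 300 bp wide, it lay over 5 kb from the 5′ end of every protein-coding gene, and it shared no base with an H3K27ac peak of Ebf2-EGFP+ cells at E11.5 or E15.5. The rule found 8100 sites among the 102604 peaks of the E13.5 list on these chromosomes. Because measured positions and widths chose the sites, their width, their distance from genes and their absence from the E11.5 and E15.5 Ebf2-EGFP+ lists are descriptions and not results.

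Chromatin came from the cerebral cortex of embryos of the line Tg(Ebf2-EGFP)FB58Gsat, in which every group carried the same transgene. EGFP in this line is driven by regulatory DNA of Ebf2, so a cell was sorted by transgene fluorescence and not by its own Ebf2 protein. ChIP-seq for H3K27ac and H3K27me3 was done on EGFP- cells at E11.5 and on EGFP+ cells of that stage, of E13.5 and of E15.5. As the study describes them, EGFP+ cells were mainly preplate neurons (Cajal-Retzius and subplate) at E11.5 and Cajal-Retzius (CR) neurons by E15.5, while EGFP- cells at E11.5 were mostly progenitors. At E13.5 the sorted population lay between these states. Cell type shares cannot be read from peak lists, so the identity of the sorted cells was not checked here.

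Acetylation of lysine 27 of histone H3 marks active promoters and enhancers, and enhancers far from genes are the part of the regulatory genome that differs most between cell types. Polycomb repressive complex PRC2 instead places methyl groups there, and a lysine carries either an acetyl group or methyl groups. Much of a mammalian genome consists of transposable elements. The most active in the mouse is LINE-1, a retrotransposon whose young copies start with a GC-rich promoter built of tandem repeat units, followed by a short and a long reading frame. CR neurons secrete Reelin and pattern the layers of the cortex.

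Many of the sites were copies of 3 repeated sequences, called families A, B and C here. The run of 30 bases found in the most sites of each family is shown because it identifies the family, 5′ to 3′ on the strand whose letters sort first, with its CpG dinucleotides in capitals.
Family A: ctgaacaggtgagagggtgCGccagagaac
Family B: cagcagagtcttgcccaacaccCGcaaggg
Family C: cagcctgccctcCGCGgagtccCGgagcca

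Many other sites were single-copy sequence, though some sites outside the families were repeated too. The widest site with under 10% of its bases in repeats, at least 90% of its 32-base words found once in the genome and no annotated exon is shown for 3 of the genes with the most sites (Zfpm1, Ajap1 and Prex1) and for 2 marker genes (Trp73 of CR neurons and Bcl11b of deep-layer neurons). At Trp73 a site of the same width, 538 bp in an intron of Megf6 59.7 kb upstream, is not shown. The central 300 bases are given on the plus strand of GRCm38, 5′ to 3′, and capitals mark matches to 15 words bound by known transcription factors, which are spelled out with their counts further on.
Zfpm1, intron, chr8:122306469-122306768: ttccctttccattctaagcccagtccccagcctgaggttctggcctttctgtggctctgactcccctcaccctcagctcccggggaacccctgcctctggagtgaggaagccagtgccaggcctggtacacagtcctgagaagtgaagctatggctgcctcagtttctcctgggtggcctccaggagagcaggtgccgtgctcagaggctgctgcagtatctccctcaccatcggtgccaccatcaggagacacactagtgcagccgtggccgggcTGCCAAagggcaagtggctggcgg
Ajap1, intron, chr4:153460067-153460366: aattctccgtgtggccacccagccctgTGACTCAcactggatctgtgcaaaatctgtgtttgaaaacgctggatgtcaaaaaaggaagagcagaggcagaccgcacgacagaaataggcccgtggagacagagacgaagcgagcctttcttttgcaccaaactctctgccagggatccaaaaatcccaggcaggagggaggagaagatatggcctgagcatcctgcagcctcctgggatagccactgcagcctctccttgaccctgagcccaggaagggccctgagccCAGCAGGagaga
Prex1, intron, chr2:166598394-166598693: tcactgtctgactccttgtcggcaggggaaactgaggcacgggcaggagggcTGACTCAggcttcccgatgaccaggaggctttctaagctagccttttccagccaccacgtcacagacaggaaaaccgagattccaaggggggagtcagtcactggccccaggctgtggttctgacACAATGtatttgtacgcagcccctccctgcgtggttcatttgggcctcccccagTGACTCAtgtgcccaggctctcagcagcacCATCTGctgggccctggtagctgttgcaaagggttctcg
Trp73, 8.13 kb upstream of its start in an intron of Wrap73, chr4:154148186-154148485: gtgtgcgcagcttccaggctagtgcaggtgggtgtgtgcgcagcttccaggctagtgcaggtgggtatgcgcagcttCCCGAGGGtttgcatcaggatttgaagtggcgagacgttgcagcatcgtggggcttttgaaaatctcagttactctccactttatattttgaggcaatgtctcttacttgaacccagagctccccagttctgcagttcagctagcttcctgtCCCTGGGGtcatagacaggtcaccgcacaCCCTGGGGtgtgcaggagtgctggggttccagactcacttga
Bcl11b, intron, chr12:107919488-107919787: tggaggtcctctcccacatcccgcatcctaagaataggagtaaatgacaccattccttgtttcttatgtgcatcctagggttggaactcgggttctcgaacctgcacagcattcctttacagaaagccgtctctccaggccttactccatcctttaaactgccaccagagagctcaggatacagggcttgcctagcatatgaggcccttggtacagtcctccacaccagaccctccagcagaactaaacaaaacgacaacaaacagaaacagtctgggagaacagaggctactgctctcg
The site in Zfpm1 held 1 NFI half-site (TTGGCA), and the site in Ajap1 held 1 AP-1 word (TGANTCA) and 1 ZIC word (CAGCAGG). The site in Prex1 held 2 AP-1 words, 1 SOX word (ACAATG) and 1 proneural E-box (CAGATG). The site upstream of Trp73 held 3 words CCCNNGGG, the core bound by EBF factors, and that in Bcl11b held none of the 15 words.

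Each list belongs to 2 ChIP libraries, except H3K27ac of E11.5 EGFP- cells, which belongs to 1. The files used hold 1 list per group, so differences between groups could not be set against replicates or tested. The ranges in brackets after percentages are Wilson 95% confidence intervals over sites, and they hold counting error alone. Read depth is unknown. The H3K27ac lists of EGFP+ cells differed in length. On the chromosomes used the E11.5 list held 37020 peaks, that of E13.5 held 102604 and that of E15.5 held 25764, and the part of depth in this was not tested. Of the 11702 wider distal E13.5 peaks, 69.2% were listed at no other EGFP+ stage. Among the narrower distal peaks that share was 91.3%.

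Near the width limit, 838 sites measured 300 to 309 bp, and 968 otherwise equal peaks measured 290 to 299 bp. Near the distance limit, 219 sites lay 5 to 6 kb from a gene start, and 232 peaks of the same kind lay 4 to 5 kb away. Width ran from 300 bp to 1929 bp with a median of 371 bp (quartiles 327 bp and 458 bp). Many sites had a neighbour of another stage close by. An E11.5 EGFP+ H3K27ac peak lay within 1 kb of 831 sites and within 10 kb of 3436, and an E15.5 peak lay within 1 kb of 350 and within 10 kb of 2342.

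The sites fell into different kinds by sequence. Soft-masked letters, which mark repeats in the reference genome, made up under 10% of 3793 sites (46.8%, 45.7 to 47.9) and at least 90% of 2577 sites (31.8%, 30.8 to 32.8). The remaining 1730 lay between. Among all E13.5 H3K27ac peaks, 14.6% were at least 90% masked, and among the distal E13.5-only peaks under 300 bp 14.8% were. The masked sites were wider, with a median of 436 bp against 355 bp, and richer in GC, with a mean of 62% against 57% for sites under 10% masked. They held 51.3 CpG dinucleotides per kb against 23.4.

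**Figure D1:**
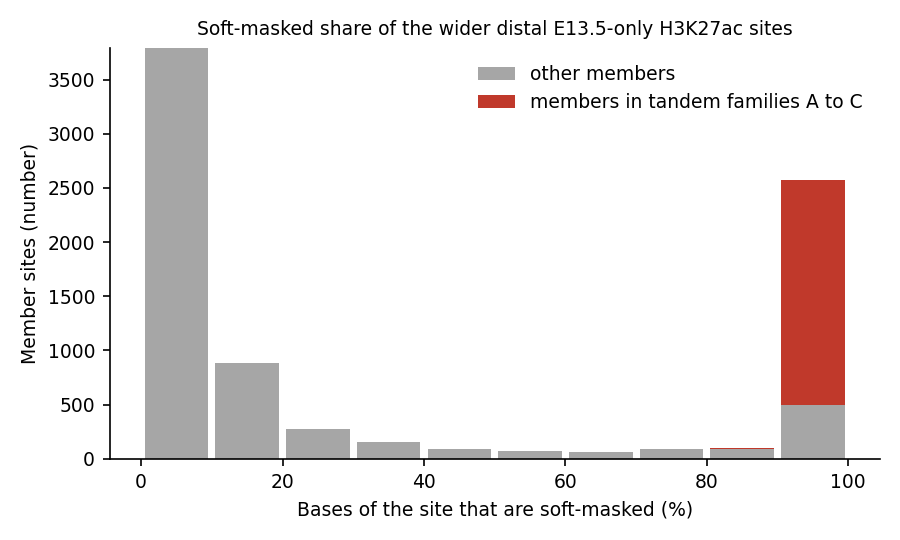
Histogram of the 8100 sites by the share of their bases that is soft-masked (x axis, percent, bins of 10) with the number of sites on the y axis. The bars pile up at both ends, with 3793 sites in the lowest bin and 2577 in the highest, of which 2084 belong to the tandem families A to C (red).

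The masked sites were largely copies of 3 sequences. Grouping them by shared words of 12 bases gave 3 families of over 100 sites, named A, B and C here by size. Assigned by their words, 1074 of the 8100 sites were in family A, 821 in family B and 202 in family C. Together these 2097 sites were 25.9% (24.9 to 26.9) of all sites, against 6.54% of all E13.5 H3K27ac peaks. The 2 shares are not like for like. The words of the families were taken from the sites themselves, and all E13.5 peaks include narrower ones and ones near genes. Of the 11702 wider distal E13.5 peaks, shared or not, 30.5% overlapped an array of the families, as given below. None of the 3793 sites under 10% masked was assigned to a family. The runs of 30 bases shown above identify them. The run of family A stood in 873 of its sites (81.3%) and at 5717 places on chromosomes 1 to 19 and X in GRCm38. That of family B stood in 732 sites (89.2%) and at 6262 places, and that of family C in 153 sites (75.7%) and at 1467 places.

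Each family was a tandem array. A site was shifted against itself by 150 to 260 bases, and over 60% of bases matched at the best shift in 665 of the 689 family A sites of at least 400 bp (96.5%). The same held for 532 of 561 sites of family B (94.8%) and 81 of 121 of family C (66.9%). The median repeat unit was 212 bp in family A, 208 bp in family B and 205 bp in family C, and in families A and B both quartiles equalled the median. Among sites under 10% masked, 69 of 1167 (5.91%) matched themselves in this way, with no common unit length.

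**Figure D2:**
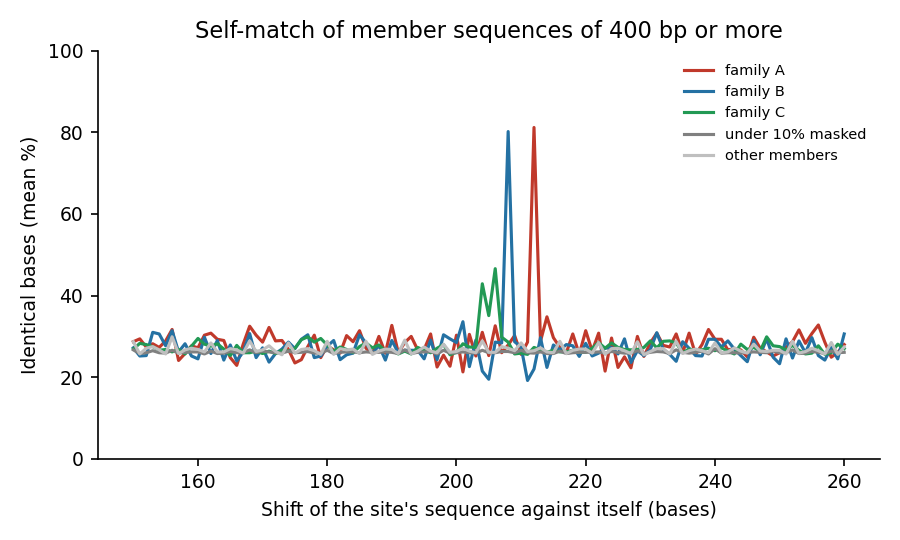
Mean percentage of identical bases (y axis) when member sequences of at least 400 bp are shifted against themselves by 150 to 260 bases (x axis), by family. Family A has a single sharp peak at 212 bases and family B at 208 bases, family C has lower peaks around 205 bases, and the sites under 10% masked and the other sites are flat.

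A long reading frame followed the arrays. Within 8 kb of the site, a frame of at least 1000 codons without a stop was found for 866 family A sites (80.6%), 520 of family B (63.3%) and 112 of family C (55.4%). The median length of these frames was 1300 codons in every family. In 857 of the 866 cases of family A (99%) the array lay upstream of the frame, with a median gap of 1417 bp from the end of the site to the start of the frame. In family B it did so in 517 of 520 cases, with a gap of 1331 bp, and in family C in 109 of 112, with a gap of 1387 bp. Among sites under 10% masked, 80 (2.11%) had such a frame nearby, and 5 of those 80 lay upstream of it. No table of repeat names was used, so which elements the families belong to was not determined, and they are called by their letters.

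Family sites could not be placed at single copies. Words of 32 bases were counted over the whole genome on both strands, and in the median family A site a word occurred 1925 times. The median was 2226 copies in family B and 425.5 in family C. In 1472 of the 2097 family sites (70.2%) no word occurred only once. Among the sites under 10% masked, at least 90% of words were single-copy in 3346 (88.2%). Reads were aligned with an option that reports a read with several matches at 1 of them, so a peak on a family array does not tell which copy was acetylated. The part of this placement in the E13.5-only status was not tested.

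The arrays were also counted over the genome, by whether a peak of a list overlapped them. Each overlap still depended on where reads with several matches were placed. The part of list length in these shares was not tested. A scan for the words of the families found 10763 arrays on chromosomes 1 to 19 and X, 4215 of family A, 4454 of family B and 2094 of family C, with median widths of 800, 700 and 550 bp. The E13.5 H3K27ac list overlapped 63.2% (61.7 to 64.6) of the family A arrays, 51.6% (50.1 to 53.1) of family B and 39.8% (37.7 to 41.9) of family C. The E11.5 EGFP+ list overlapped 17%, 17.8% and 15.9% of the 3 families in the same order. The E15.5 list overlapped 7.07%, 7.21% and 7.69%. The intervals of the 3 families did not overlap in the E13.5 list and overlapped in the earlier and the later list. The H3K27me3 list of E11.5 EGFP- cells showed the same step as E13.5 acetylation, with 44.6% (43.1 to 46.1), 38.8% (37.4 to 40.2) and 30.1% (28.2 to 32.1). Array width fell in the same order, and its part in these steps was not tested. Taken over the peaks of each list, family sequence made up 5.36% of the E11.5 EGFP+ list, 6.54% of the E13.5 list and 3.04% of the E15.5 list. The H3K27ac list of E11.5 EGFP- cells, with 1384 peaks on these chromosomes, overlapped 6 of the 10763 arrays.

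**Figure D3:**
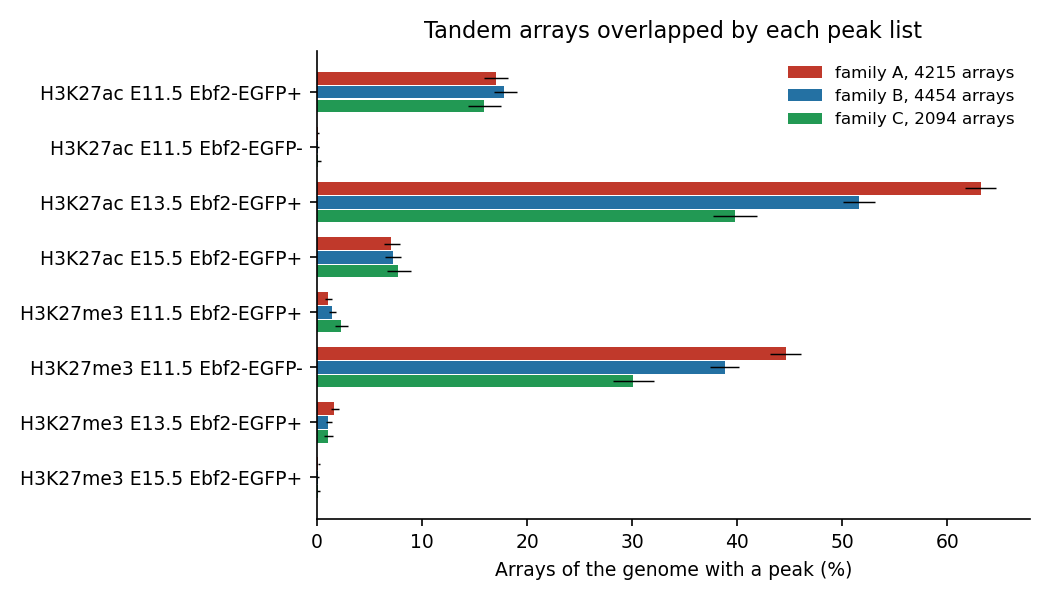
Share of the genome's tandem arrays of families A, B and C that a peak of each list overlaps (x axis, percent), with Wilson 95% intervals, for the 8 lists (y axis). The longest bars are those of H3K27ac of E13.5 EGFP+ cells (63.2% of family A) and H3K27me3 of E11.5 EGFP- cells (44.6% of family A).

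Wider distal peaks listed only at E11.5 or only at E15.5 were seldom in the families. Of the 1424 wider distal peaks listed only at E11.5, 35 were in the families (2.46%, 1.77 to 3.4), and of the 1379 listed only at E15.5, 18 were (1.31%, 0.827 to 2.05). The E13.5 list covered 53.8% (52.9 to 54.8) of all arrays, and its part in these low shares was not tested. Counted with shared peaks included, arrays lay under 30.5% (29.7 to 31.4) of the 11702 wider distal peaks of E13.5. The share was 12.3% (11.3 to 13.4) of 3637 for EGFP+ cells of E11.5 and 6.69% (5.87 to 7.61) of 3184 for E15.5. Within the E13.5 list, the family share of the E13.5-only sites was not the highest. It was 44.2% (42.4 to 46.1) in the 2844 wider distal E13.5 peaks that were shared with E11.5 or E15.5 but not both, and 27.3% (24.3 to 30.6) in the 758 shared with both. Of the 2019 arrays that held an E13.5-only site, 131 (6.49%) had an E11.5 EGFP+ H3K27ac peak elsewhere in the array and 51 (2.53%) an E15.5 peak. Over all 10763 arrays these lists overlapped 17.2% and 7.25%. The rule bars such peaks from the site itself, so low shares in these arrays were partly built into the choice of sites.

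The same arrays were often listed for H3K27me3 in the EGFP- cells of E11.5, with the same limit on which copy carried the mark. Of the 8100 sites, 2688 (33.2%, 32.2 to 34.2) overlapped the H3K27me3 list of E11.5 EGFP- cells, against 17.5% of all E13.5 H3K27ac peaks. Of the family sites 1549 did (73.9%, 71.9 to 75.7), and of the other 6003 sites 1139 did (19%, 18 to 20). In an overlapping family site, the list covered a median of 61% of the bases. A wider site has more chance to touch a peak, and the family sites were wider, with a median of 462 bp against 355 bp. Family peaks shared with E11.5 or E15.5 overlapped the same list in 84.6% (82.5 to 86.5) of cases and those shared with both in 88.4% (83.3 to 92.1), so a high overlap was not particular to E13.5-only sites. Over all 10763 arrays of the genome the H3K27me3 list of E11.5 EGFP- cells overlapped 39.4%. The cells and the stage both differ between the E11.5 EGFP- and the E13.5 EGFP+ lists, and these 2 lists alone cannot tell them apart. At the same stage, the H3K27me3 list of E11.5 EGFP+ cells overlapped 22 of the 2097 family sites (1.05%, 0.694 to 1.58). That list held 6379 peaks on the chromosomes used against 48836 for EGFP- cells, and the part of list length was not tested.

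In EGFP+ cells H3K27me3 was rare at the sites. The E11.5 EGFP+ list overlapped 171 sites (2.11%, 1.82 to 2.45), against 1.61% of all E13.5 peaks. The E13.5 list overlapped 255 (3.15%, 2.79 to 3.55), against 2.48%. The E15.5 list overlapped 7 (0.0864%, 0.0419 to 0.178), against 0.263%. These lists were short, with 6379, 6720 and 1428 peaks on the chromosomes used, while the EGFP- list had 48836. At E13.5 the order of the kinds was reversed relative to EGFP- cells, since 38 family sites (1.81%, 1.32 to 2.48) and 217 other sites (3.61%, 3.17 to 4.12) overlapped the E13.5 list. The E11.5 EGFP+ list gave the same order as E13.5, with 22 family sites (1.05%, 0.694 to 1.58) and 149 other sites (2.48%, 2.12 to 2.91).

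**Figure D4:**
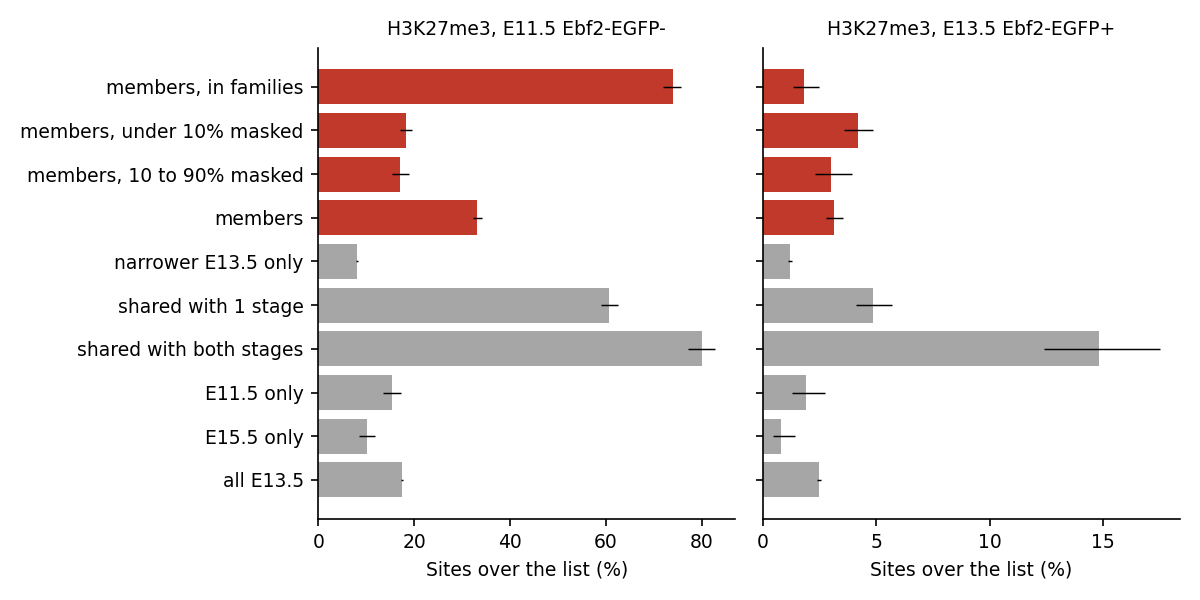
Share of sites that overlap the H3K27me3 list of E11.5 EGFP- cells (left) and of E13.5 EGFP+ cells (right), in percent with Wilson 95% intervals, for the E13.5-only sites (red, called members, split by sequence) and for comparison sets of peaks (grey). Family sites reach 73.9% on the left and 1.81% on the right, and the peaks shared with both other stages lead the comparison sets in both panels, with 80.1% and 14.8%.

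The widest sites were all family arrays. The 10 widest measured 1363 to 1929 bp, were 98% to 100% masked, and belonged to family A (6 sites) or family B (4 sites). All 10 had bases under the H3K27me3 list of E11.5 EGFP- cells, from 352 to 1703 bp, and none under that of E13.5. The widest lay on chromosome 11 from 99824913 to 99826841 in mm10, between genes and 9.25 kb from the start of Gm11564. Its E11.5 EGFP- H3K27me3 overlap of 1703 bp was also the largest of the 10. Of the 104 sites of at least 1000 bp, 94 were in the families.

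The widest sites under 10% masked were named after their values were seen. The first, 1308 bp in an intron of Smg6, was also repeated sequence, with a median of 35 copies of its words, and 1045 bp of it lay under the H3K27me3 list of E11.5 EGFP- cells. The second, 1019 bp in an intron of Igsf21, an adhesion gene of inhibitory synapses, was single-copy and had no base under either H3K27me3 list named here. Next came 911 bp in an intron of Ppfia4, which encodes a liprin of the presynapse, with 203 bp under the E13.5 H3K27me3 list, and 904 bp in an intron of Smad3, a mediator of TGF-beta signalling, with none.

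The sites under 10% masked lay mostly in genes. Of these 3793 sites, 1084 had their centre in an exon (28.6%, 27.2 to 30), 1828 in an intron (48.2%, 46.6 to 49.8) and 881 between genes (23.2%, 21.9 to 24.6). Of all distal stretches of 300 bp in the genome, 4.06% had their centre in an exon, 42.2% in an intron and 53.8% between genes. Unlike these sites, the stretches were not filtered for repeats, and the part of that filter in the difference was not tested. Among all 6003 sites outside the families, 22.9% had their centre in an exon, 45.9% in an intron and 31.1% between genes. Family sites were placed differently, with 13 of 2097 in exons (0.62%) and 1460 between genes (69.6%, 67.6 to 71.6). The median distance to the nearest protein-coding start was 25.7 kb for sites under 10% masked and 154 kb for family sites. An annotated transcript of any gene type started within 1 kb of 691 sites under 10% masked (18.2%, 17 to 19.5) and of 55 family sites (2.62%). Since such sites can be promoters of alternative or noncoding transcripts, distal here means distal to the 5′ end of protein-coding genes only.

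Over all 8100 sites, 1390 had their centre in an exon (17.2%), 3382 in an intron (41.8%) and 3328 between genes (41.1%). Mean GC was 58.4% (SD 4.78 over sites), against 41.5% for distal stretches of the genome, and the mean masked share was 39.4%. In the narrower distal E13.5-only peaks mean GC was 55.4%.

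Several words, E-boxes of proneural and related bHLH factors among them, were more common in the sites outside repeats than in distal stretches. The central 300 bases were searched on both strands for 15 words. These were CAGATG and CAGCTG (E-boxes), TAATTA (homeodomain), CCCNNGGG (EBF core, the same on both strands), TGANTCA (AP-1), TGACGTCA (CRE), GGGCGG (GC box), TTGGCA (NFI half-site), ACAATG (SOX), ATGCAAAT (POU octamer), GTTGCCATG (RFX half-site), AGGTGTGA (T-box), GCGCATGCG (NRF1), CCGGAAG (ETS) and CAGCAGG (ZIC), and matches of different words could overlap. A match is a run of letters and not a bound site. CAGATG stood in 26.9% of sites under 10% masked and CAGCTG in 29.8%. Of all distal stretches of 300 bp, 21.9% held CAGATG and 10.4% held CAGCTG. The narrower E13.5-only peaks under 10% masked held them in 28.2% and 26.4%, those listed only at E11.5 in 25.1% and 26.7%, and those listed only at E15.5 in 24.3% and 23.9%. The ZIC word stood in 20.5% of sites under 10% masked against 5.78% of distal stretches, and the EBF core in 15.7% against 4.47%. The GC box stood in 13% against 2.44%, and the ETS word in 3.4% against 0.775%. The homeodomain, AP-1, SOX and POU words were less common in these sites than in distal stretches. AT-rich words were rare, with TAATTA, the homeodomain word, in 0.949% against 10.8%. GC content differed in the same direction, with 57.2% in these windows and 41.5% in the distal stretches, and its part in the word counts was not tested. The stretches also included repeats, which these sites mostly lack, and the part of that was not tested either. For CAGATG the interval of the sites (25.6 to 28.4) overlapped those of the E11.5-only (22.5 to 28) and E15.5-only peaks (21.6 to 27.3). For CAGCTG the interval of the sites (28.3 to 31.2) overlapped that of E11.5 (24 to 29.5) and lay above that of E15.5 (21.2 to 26.8).

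Family sites held other words. The ETS word CCGGAAG stood in 36.4% of family windows and in 3.4% of sites under 10% masked, against 0.775% of distal stretches. The GC box GGGCGG stood in 44.2% of them against 13% and 2.44%, and the EBF core in 37.5% against 15.7% and 4.47%. CAGATG stood in 4.63% of family windows. The homeodomain, AP-1, CRE, POU, RFX, T-box and NRF1 words stood in none of the 2097. Copies of 1 sequence share their words, so family sites are not independent counts.

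The sites were spread over many genes. They had 5046 different nearest protein-coding genes out of 21728, and 3325 of these genes had a single site, while 153 had 5 or more. Among the 10 genes with the most sites were Zfpm1 (12 sites), which encodes the GATA cofactor FOG-1, Ajap1 (12 sites), which encodes an adherens junction protein, and Prex1 (11 sites), which encodes an activator of the GTPase Rac that acts in neuronal migration. Of these sites, 9 of 12, 9 of 12 and 8 of 11 were under 10% masked, and none was in a family. Of the 12 sites of Zfpm1, 11 had their centre in an intron of an annotated gene, in many cases of Gm20388, a gene model that overlaps Zfpm1. Gins2 followed with 10 sites, Gm26897 with 10, and Llgl1, Gm21863 and Dynlt1c with 9 each.

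Gm21119 with 13 sites and Atg7 with 11 were of another kind. None of their sites was under 10% masked or in families A to C. In the median site of Gm21119 a word of 32 bases occurred 125 times in the genome, and in the median site of Atg7 51 times. Of the Gm21119 sites 10 of 13, and of the Atg7 sites 8 of 11, overlapped the H3K27me3 list of E11.5 EGFP- cells. The Atg7 sites lay 6.73 to 107 kb from its start, and none had its centre in an intron.

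Counted within 100 kb of a gene start, Trp73 was the CR marker with the most sites. It encodes p73, a transcription factor that CR neurons express and need for survival. Within 100 kb of its start lay 13 sites, 11 of them under 10% masked. Of the 21728 protein-coding genes 1 had more, its neighbour Megf6 with 14. Several others also had 13, among them its neighbours Wrap73 and Tprgl, and Zfpm1 and Aatk elsewhere. Most of the 13 sites had their nearest protein-coding start at another gene, such as Ccdc27, Wrap73 or Megf6. The 13 sites formed 2 groups, 5 within Trp73 at 37.8 to 82.5 kb downstream of its start, and 8 upstream in Wrap73 and Megf6 at 8.13 to 97.5 kb. The site 58.9 kb downstream, 324 bp in an intron, lay wholly under the H3K27me3 list of E13.5 EGFP+ cells. The site 12.4 kb upstream, in an exon of Wrap73, had 116 bp under the same list and 181 bp under the H3K27me3 list of E11.5 EGFP- cells. Within the same 100 kb, the E13.5 H3K27ac list held 57 peaks of any width, the E11.5 EGFP+ list 12 and the E15.5 list 10. At Zfpm1, also with 13 sites within 100 kb, the 3 lists held 54, 24 and 12. The nearest E11.5 EGFP+ peak lay 0.037 kb from 1 of the Trp73 sites and 34.7 kb from another.

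A cluster of sites was not particular to neuronal genes. C1qa, a complement gene of microglia, had 8 sites within 100 kb, Notch1, a receptor of progenitors, had 7, and the housekeeping gene Actb had 6. The 8 sites of C1qa lay in and around its neighbours Ephb2, C1qb, Epha8 and Zbtb40, so the distance window assigns sites to genes without regard to which gene they act on.

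Of all protein-coding genes, 49.7% had a site within 100 kb of their start, and 34.2% had one under 10% masked. The lists of marker genes were read against these shares. Of 14 CR genes 5 had a site (35.7%), led by Trp73, Lhx5 with 4 sites and Cdkn1a with 3. Of 11 preplate and subplate genes 5 did (45.5%), with 4 sites each at Nxph4 and Nr4a2 and 2 at Cplx3. Among 16 progenitor genes the count was 11 (68.8%), led by Notch1, the Notch effector Hes5 with 5 sites and Prom1 with 3. The counts were 7 of 15 for newborn neurons, 6 of 10 for deep-layer neurons, 6 of 10 for upper-layer neurons and 9 of 16 for interneurons. The lists hold 10 to 16 genes each, so a few genes decide on which side of 49.7% a list falls. They were not tested.

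Genes of the mature neuron were counted in 3 lists, without a test. Of 24 genes for synaptic adhesion 5 had one (20.8%), of 22 ion channels and receptors 5 (22.7%) and of 24 axon guidance genes 8 (33.3%). Their sites were few except at Nrxn2, a presynaptic adhesion gene with 6. Markers of other cell types that a sort can carry along had sites too, 5 of 8 for microglia, 5 of 8 for endothelium, 6 of 10 for meninges and mural cells and 3 of 8 for erythroid cells, led there by Slc4a1 with 5 sites. Their part in the lists was not tested. Of 18 genes of hem, septum and ventral pallium, where CR neurons arise, 9 had a site (50%), led by Wnt3a with 3. Of 10 housekeeping genes 3 had a site.

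Olfactory and vomeronasal receptor genes, which are silent in cortex and sit in repeat-rich clusters, showed how the families weigh. Of 1464 such genes 413 had a site (28.2%), but 63 had one under 10% masked (4.3%), and 325 had a family site (22.2%), against 7.17% of all genes. A nearby site at a receptor gene was thus mostly a family array.

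**Figure D5:**
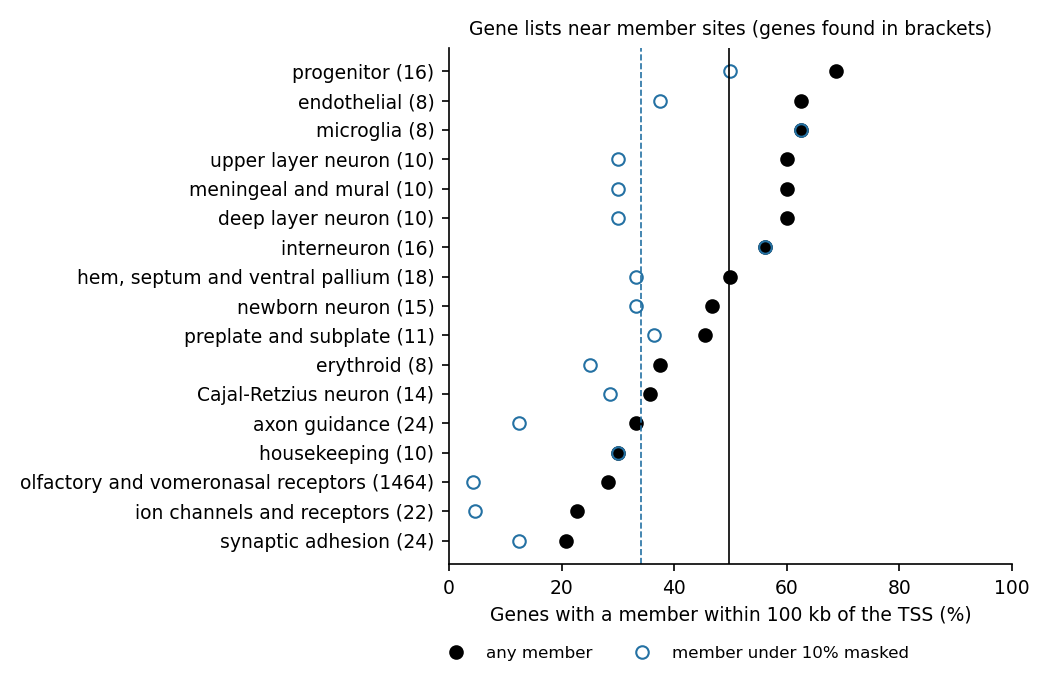
Percentage of the genes of each list with a site within 100 kb of the gene start (x axis), for any site (filled, called member) and for sites under 10% masked (open), with the number of genes found in brackets. The vertical lines are the shares of all protein-coding genes, 49.7% (solid) and 34.2% (dashed), and the lists range from 20.8% for synaptic adhesion to 68.8% for progenitors.

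Gene starts nearest to sites under 10% masked were more often marked than all gene starts in the lists given here. The H3K27ac lists of EGFP+ cells also served to choose the sites, so their shares are descriptions. Genes nearest to other E13.5 peaks were not counted for comparison. Within 1 kb of the start, H3K27ac of E13.5 was listed at 60.6% (58.7 to 62.4) of the genes nearest to a site under 10% masked, against 44.9% of all protein-coding genes. At the same genes the E11.5 EGFP+ list gave 50.1% against 40.9%, and the E15.5 list 54.5% against 46.4%. H3K27me3 of E11.5 EGFP- cells was listed at 48.9% against 36.5%, and that of E13.5 EGFP+ cells at 9.67% against 5.38%. At genes nearest to a family site the E13.5 H3K27ac share was 36.9%, and that of H3K27me3 in E11.5 EGFP- cells was 32.1%. Both were below the shares of all genes.

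The 3 sites with the most bases under the E13.5 H3K27me3 list were outside repeats. The first, 761 bp on chromosome 7 from 144861317 to 144862077 in mm10, had 397 bp under it, its centre lay in an exon of Fgf4, a growth factor gene, and its GC was 70.8%. It also had 363 bp under the H3K27me3 list of E11.5 EGFP- cells. The second, 403 bp at an exon of Sptbn4, a spectrin of the axon initial segment, had 345 bp under the E13.5 list. The third was the Trp73 site above. A list comes from many cells, so both marks at a site need not mean both marks in a cell.

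Acetylation in E11.5 EGFP- cells was listed at 9 of the 8100 sites (0.111%, 0.0585 to 0.211), against 0.698% of all E13.5 peaks. Their centres lay in Mxra7, Irx4, Zdhhc8, Gmeb1, Wrap73, Radil, Pou2f2 and Sox6, and 1 lay between genes, 72.5 kb from Rps15a. They were 308 to 451 bp wide, and all were outside the families. The H3K27ac list of E11.5 EGFP- cells comes from 1 library and held 1384 peaks on these chromosomes. It marked 796 protein-coding gene starts within 1 kb. The rule left out peaks near such starts and peaks shared with the E11.5 EGFP+ list, so a low share was partly built into the choice of sites.

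Neighbours among the sites were counted on a scale of 10 kb. The share with a neighbour depends on the number of sites, with 41.5% at a width limit of 200 bp and 6.02% at 500 bp. It was not set against an expected share. In all, 1697 sites (21%, 20.1 to 21.9) lay within 10 kb of another, in 746 runs, of which 613 were pairs. The longest run by count held 8 sites over 32.3 kb on chromosome 15 (76176580 to 76208902, mm10), nearest to Plec, a cytoskeletal linker gene, and BC024139. The next held 7 sites over 13.4 kb at Aatk, a neuronal kinase gene, on chromosome 11. Both were mainly outside repeats, with 7 of 8 and 6 of 7 sites under 10% masked. A run of 5 sites over 7.61 kb on chromosome 3, nearest to 1700008P02Rik, consisted of family arrays alone. Of the family sites 9.49% lay within 10 kb of another family site.

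On chromosomes X and 11, sites under 10% masked and family sites ran in opposite directions. This did not hold for every chromosome. Per Mb, chromosome 4 had 2.28 sites under 10% masked and 0.848 family sites, and chromosome 13 had 0.871 and 0.683. Sites under 10% masked were densest on chromosome 11 (2.82 per Mb) and sparsest on X (0.128 per Mb), whereas family sites were densest on X (1.35 per Mb) and sparsest on chromosomes 19 (0.412 per Mb) and 11 (0.421 per Mb). The whole E13.5 H3K27ac list was likewise densest on chromosome 11 (64.3 peaks per Mb) and sparsest on X (13.3 per Mb). The density of sites under 10% masked was thus not particular to the sites at these 2 extremes. On X 71.1% of the 311 sites were in the families, and on chromosome 11 9.09% of 550. The density of family sites was not set against that of the arrays on each chromosome. Reads on family sites also could not be placed at single copies. Chromosome 11 had the highest GC of the chromosomes used (43.8%) and X the lowest (39.3%).

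Ebf2 itself, on chromosome 14 from 67233292 to 67430918, had no such site within 200 kb of its start. In that window the E13.5 H3K27ac list held 22 peaks, the E11.5 EGFP+ list 13 and the E15.5 list 2, so acetylation was listed there at peaks that did not meet the 4 criteria.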

How the data were processed

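Per the study's methods, the authors sorted Ebf2-EGFP+ and Ebf2-EGFP- cortical cells and made ChIP-seq libraries for H3K27ac and H3K27me3. They aligned reads to mm10 with Bowtie 1.1.2, which reported a read with several matches at 1 of them, and called peaks with MACS. The MACS version, the use of input and whether libraries were pooled before calling are not given in the sources used here. The authors deposited 8 peak lists, 1 per mark and cell group, as BED intervals whose score column is 0 in every row, so only positions and widths were used. No list holds read counts, and the depth of each sample is unknown. 0 columns were left without a sample. Input libraries have no list and were not used.

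Gene starts, exons and introns were taken from GENCODE M21, repeats from the soft-masked letters of GRCm38, and starts were read as 0-based and are printed 1-based. Overlap means at least 1 shared base. Families came from linking the sites at least 90% masked that shared at least 10% of their words of 12 bases, keeping groups of over 100 sites, and a core word stood in at least 10% of the sites of a group. Peaks with at least 20% core words were assigned to the group whose own core words they held most. Arrays of the genome were windows of 200 bp, moved by 50 bp and joined within 500 bp. Copies of words of 32 bases were counted on both strands of the genome. Distal stretches were consecutive windows of 300 bp over 5 kb from gene starts, without a filter for repeats. Wilson 95% intervals were computed in Python 3.11.15 with numpy 2.4.6, pandas 2.3.3, scipy 1.17.1 and numba 0.67.0, and figures were drawn with matplotlib 3.10.9. The functions passed 6 of 6 checks on simulated data. With 1 list per group no test between groups was made.

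The sites, gene lists and choices were made with earlier results of these data known. Named sites and genes were the 10 widest sites, the 3 with the most bases under the E13.5 H3K27me3 list, the 10 genes nearest to the most sites, up to 3 genes of each list with the most sites within 100 kb, and sites within 200 kb of Ebf2. Sequences were shown for the widest suitable site of some of these genes. The alternatives were other limits of width and distance, all transcript starts, a gap of 1 kb to other stages, joined peaks, autosomes only and, chosen after seeing the data, the sites without families A to C.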

Additional observations from a re-analysis of the deposited data

How the results depend on the processing

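Joining E13.5 peaks within 100 bp of each other changed none of the 10 summary values, since no peaks of that list lie so close. With a width limit of 200 bp there were 26128 sites, of which 18.6% overlapped the H3K27me3 list of E11.5 EGFP- cells and 2.25% that of E13.5, mean GC was 56.7%, masked bases were 29.9%, 44.9% lay in introns and 38.9% between genes, 41.5% lay within 10 kb of another site and 11.6% within 1 kb of a transcript start. At 500 bp there were 1478, with 65.6%, 3.79%, 61.5%, 67.4%, 36.7%, 50.9%, 6.02% and 9.13% in the same order, and 0% overlapped the H3K27ac list of E11.5 EGFP- cells. At over 10 kb from genes, the H3K27me3 overlaps were 34.5% and 2.66%, masked bases 42.8%, intergenic sites 43.9%, neighbours within 10 kb 19.6% and transcript starts within 1 kb 11.1%. At over 5 kb from every transcript start, the H3K27me3 overlaps were 37.1% and 2.79%, the H3K27ac overlap 0.0526%, GC 58.6%, masked bases 48.4%, introns 39.8%, intergenic 51.6%, neighbours 16.2% and, by construction, transcript starts 0%. With no peak of another stage within 1 kb, masked bases were 41%, intergenic 42.9%, neighbours 16.9% and transcript starts lay within 1 kb of 808 of 7026 sites (12% when rounded, interval 10.8 to 12.3). On autosomes alone, the E11.5 EGFP- H3K27me3 overlap was 31.8%, GC 58.3%, masked bases 37.5% and intergenic 39.8%. Without families A to C, an alternative chosen after seeing the data, the H3K27me3 overlaps were 19% and 3.61%, GC 56.7%, masked bases 18.4%, introns 45.9%, intergenic 31.1%, neighbours 24.4% and transcript starts 16.2%. In 30 further cases the value stayed within its interval or, for counts, within 1.5 times.

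No paired analysis was possible because each group has 1 peak list without replicate columns. For the same reason leaving out a replicate could not be run, and intervals cover counting over sites and not variation between libraries. Positions on family arrays are limited by reads that match many copies.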
